A study of Mus musculus with 4 samples.

Results

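The LPS response of peritoneal exudate cells from LysM-St18flox mice was taken from 2 of the 4 arrays of the series, the LysM-St18flox array at 0 h and the LysM-St18flox array at 3 h. The other 2 arrays hold wild-type cells at 0 h and at 3 h and serve only for values set beside these. Each group has 1 array, so a difference between 2 arrays has no replicate check and no p-value is given. Mice of both genotypes were lavaged 3 days after injection of 4% thioglycollate, a sterile irritant that recruits leukocytes to the peritoneum. The cells were kept in RPMI1640 with 10% FBS, and lipopolysaccharide (LPS) was given for 0 or 3 h at a dose not given in the sources used here. LysM names the lysozyme 2 locus, whose promoter is a usual driver of Cre in macrophages and granulocytes, so other cells of the lavage would keep the floxed gene intact. The product of St18 is a DNA-binding protein with zinc fingers. The labels name a mouse as the source of each sample, do not say whether the samples of a genotype share it, and give no age, sex or details of the allele. The sample titles read PEC while the labels name peritoneal macrophages, and the cells of a lavage include other types. In bulk RNA of this kind, fewer cells of a type and less RNA per cell cannot be told apart.

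LPS, a component of the outer membrane of Gram-negative bacteria, is bound by CD14 and recognised by Toll-like receptor 4 (TLR4) with its co-receptor MD-2. At the plasma membrane the receptor signals through the adaptor MyD88 to NF-kB and MAP kinases, which induce cytokines, chemokines and their own inhibitors. From endosomes it signals through the adaptor TRIF to IRF3, which induces interferon-beta, and secreted interferon then acts through STAT proteins and IRF9 on a large set of antiviral genes. In macrophages the same stimulus lowers many transcripts of the resting cell, among them lineage transcription factors, G protein-coupled receptors and clock genes.

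Levels are given as the log2 processed signal of a probe minus the array's 75th percentile, and a difference is the level at 3 h minus the level at 0 h, also in log2. The brightest probe stands for a gene, which counts as measured where that probe was well above background on both LysM-St18flox arrays. Between 53.2% and 55.6% of the spots of these arrays were well above background, with no saturation. For probes printed 10 times the difference between both arrays had a standard deviation of 0.05. Different measured probes of a gene differed more, with a median standard deviation of 0.13 over 4475 genes. These spreads cover spots and probes, not mice or cultures. St18 followed the genotype label, since neither of its 2 probes was well above background on either LysM-St18flox array, while the brighter was so on both wild-type arrays (levels of -1.31 at 0 h and -1.66 at 3 h).

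Of 22905 genes on the array 12976 were measured in LysM-St18flox cells. After LPS 1055 genes (8.13% of those measured) passed 2-fold upward and 1167 (8.99%) passed it downward. Large differences were more often upward: 389 genes were at least 4-fold higher against 167 at least 4-fold lower, 179 against 44 passed 8-fold, and 43 against 0 passed 32-fold. The differences ran from 10.83 for Cxcl10 to -4.52 for Ankrd37, and the median over all measured genes was -0.09. Centring the arrays on their medians instead moved that median to 0.14 and turned the split of calls from 47.5% higher to 64.9% higher, with 1377 genes higher and 744 lower. Bounds of 2-fold or more add 264 genes upward and 353 downward whose probe was above background on just 1 of the 2 arrays.

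Agreement between probes was used to grade the calls. Of 616 genes past 2-fold that had a second measured probe, 69.0% had all their measured probes past 2-fold in the same direction, which comes to 254 genes higher and 171 lower (5.68% and 3.82% of the 4475 genes with several measured probes). The share was 74.7% among genes that were higher and 62.0% among genes that were lower. Over all genes, 94.2% of 5597 further probes lay within 1 log2 unit of the brightest probe of their gene. A gene is said below to have agreeing probes when it belongs to these 425 genes.

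**Figure D1:**
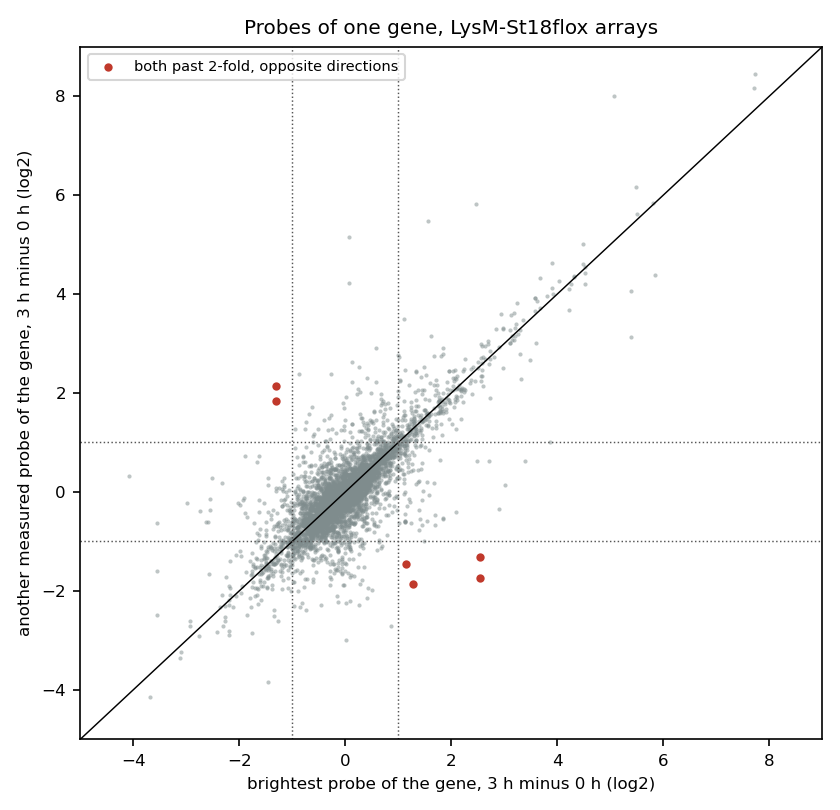
Difference after LPS (3 h minus 0 h, log2, LysM-St18flox arrays) of the brightest probe of a gene (horizontal) against each other measured probe of that gene (vertical), 5597 points; the line marks equality and dotted lines mark 2-fold. Most points lie near the line, and the 6 red points are pairs past 2-fold in opposite directions.

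**Figure D2:**
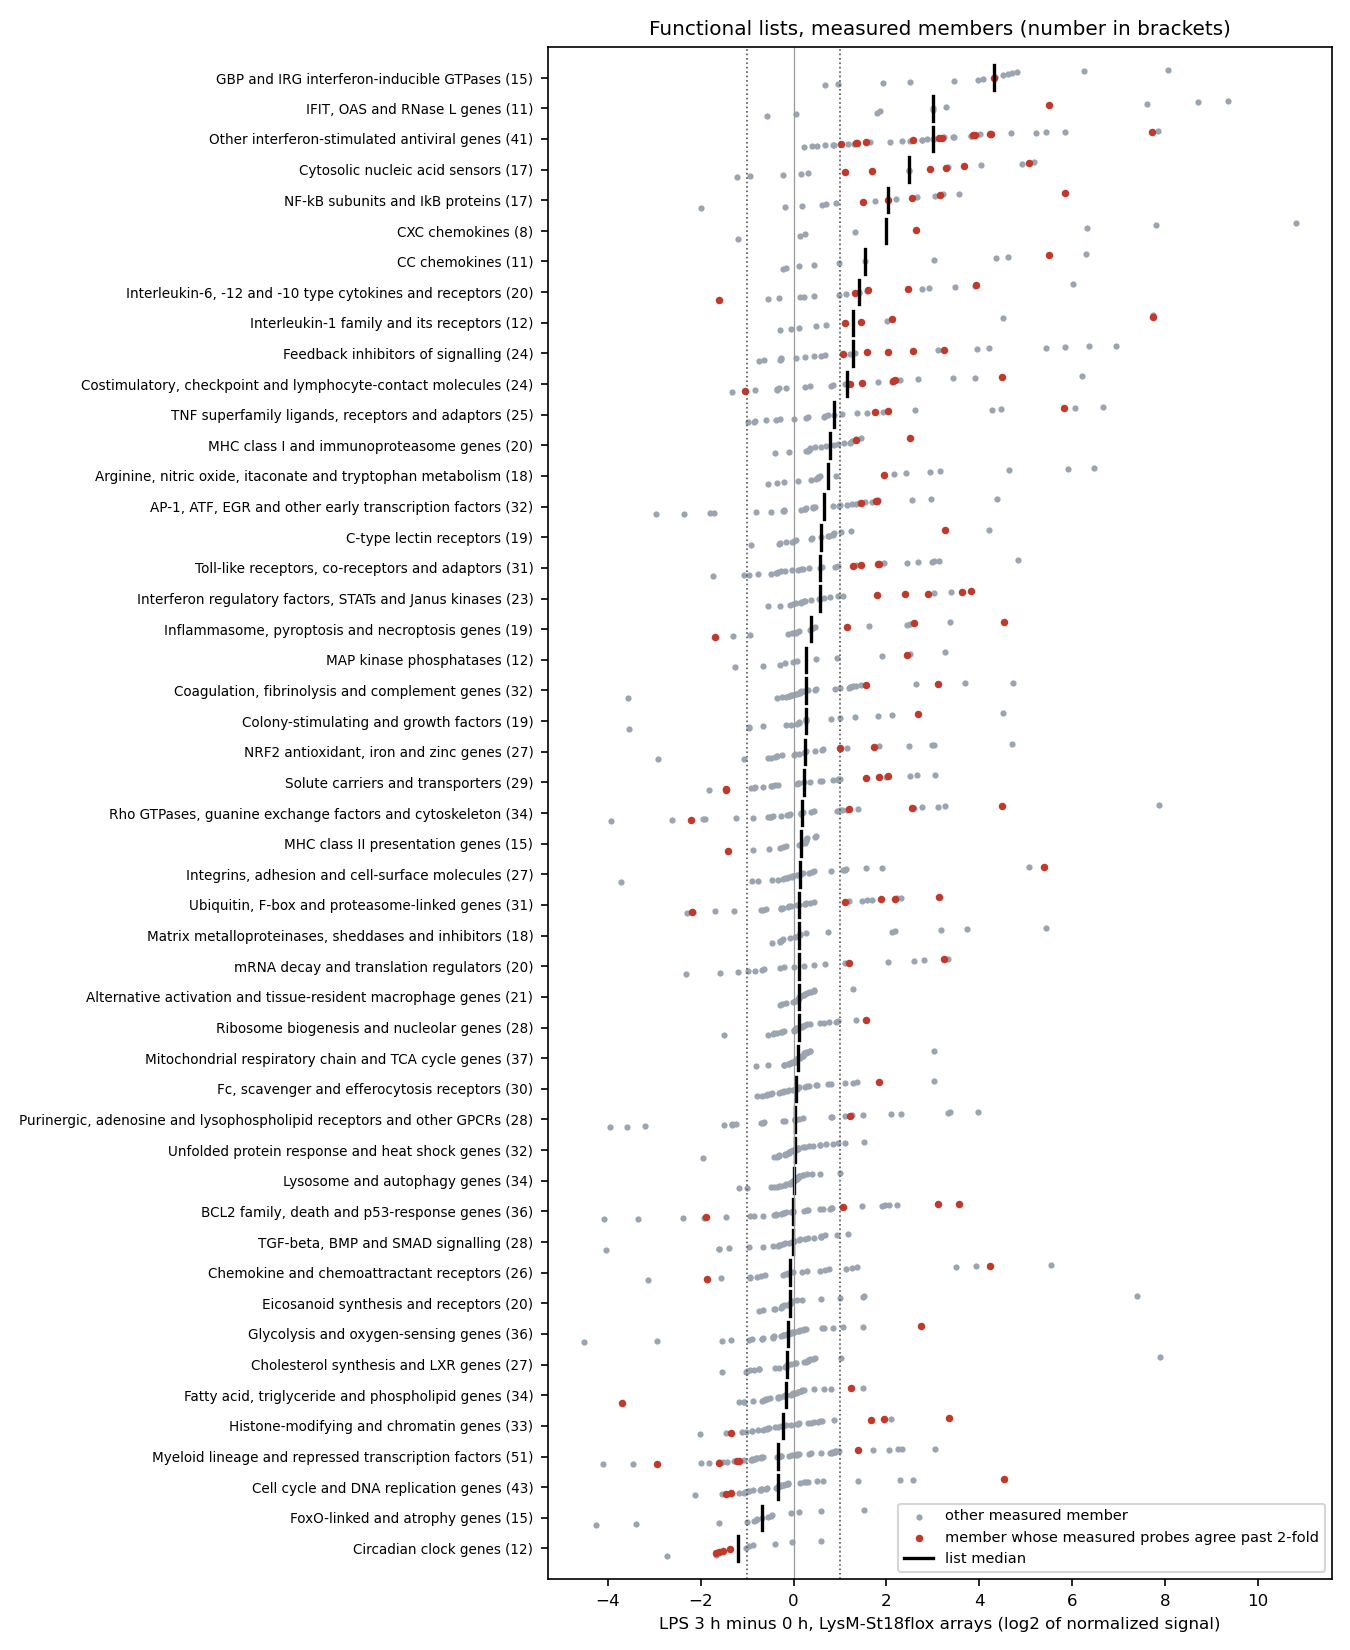
Difference after LPS (log2, horizontal) of every measured member of the functional lists with 5 or more measured members, in order of the list median (black bar); red points are members with agreeing probes and dotted lines mark 2-fold. Interferon-inducible GTPases have the highest median at 4.32 and circadian clock genes the lowest at -1.20.

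Chemokines, the secreted proteins that recruit leukocytes, held the highest difference among genes measured on both arrays. Among the 8 measured CXC chemokines 5 passed 2-fold upward and 1 downward, around a median difference of 1.98. Cxcl10, a ligand of CXCR3 that attracts T cells, had a level of -2.96 at 0 h and 7.87 at 3 h, a difference of 10.83 (11.70 in wild-type cells). The neutrophil attractants Cxcl1 and Cxcl2 differed by 7.80 and 6.33. Both were measured by a single probe. Cxcl16, a membrane-bound ligand that also acts as a scavenger receptor, went from 1.19 to 3.83 with agreeing probes, a difference of 2.64. Cxcl3 and Cxcl9 were above background only at 3 h, so that they were at least 455-fold and 49.1-fold higher. The member that was lower, Cxcl14, differed by -1.20.

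The CC chemokines stood at a median of 1.54, with 6 of 11 measured members past 2-fold upward and 0 downward. Ccl4, an attractant of monocytes and T cells, went from 2.77 to 8.28, and its probes agreed on a difference between 5.51 and 5.61. Ccl5 and Ccl3, which attract the same kinds of cells, differed by 6.31 and 4.63. The monocyte attractants Ccl7, Ccl2 and Ccl8, which are neighbours on chromosome 11, differed by 4.37, 3.04 and 1.54. Ccl12, another monocyte attractant, was at least 160-fold higher, and Ccl17 at least 12.1-fold. Ccl9, which many macrophages secrete at rest, differed by 0.99.

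Promoter sequences are shown for 4 strongly induced genes of this inflammatory group, since their matches to the kB motif (the 10-base consensus bound by NF-kB, by name) can be read directly. Capitals mark matches to the kB motif or to the interferon-stimulated response element (ISRE, searched as a pair of GAAA blocks with any 2 bases, NN, between them), on either strand. Sequences are the 250 bases before the RefSeq start of each gene in GRCm38.p6, written 5′ to 3′ on the gene's own strand.
Cxcl10 (chr5:92348890-92349139, - strand): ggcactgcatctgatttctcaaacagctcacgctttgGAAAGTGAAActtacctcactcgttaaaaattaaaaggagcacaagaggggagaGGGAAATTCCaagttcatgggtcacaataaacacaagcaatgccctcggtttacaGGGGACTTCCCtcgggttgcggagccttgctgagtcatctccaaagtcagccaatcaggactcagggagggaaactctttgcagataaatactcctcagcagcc
Cxcl1 (chr5:90890995-90891244, + strand): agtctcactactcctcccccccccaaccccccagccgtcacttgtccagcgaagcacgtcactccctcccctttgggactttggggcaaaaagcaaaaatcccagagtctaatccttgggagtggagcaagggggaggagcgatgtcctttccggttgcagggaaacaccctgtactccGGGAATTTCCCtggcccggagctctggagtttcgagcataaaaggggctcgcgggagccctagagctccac
Il6 (chr5:30012864-30013113, + strand): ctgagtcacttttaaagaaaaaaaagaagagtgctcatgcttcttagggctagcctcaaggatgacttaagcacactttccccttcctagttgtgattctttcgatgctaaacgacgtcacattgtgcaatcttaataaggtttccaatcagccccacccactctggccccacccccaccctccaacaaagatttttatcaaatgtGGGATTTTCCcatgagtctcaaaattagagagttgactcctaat
Nfkbia (chr12:55492648-55492897, - strand): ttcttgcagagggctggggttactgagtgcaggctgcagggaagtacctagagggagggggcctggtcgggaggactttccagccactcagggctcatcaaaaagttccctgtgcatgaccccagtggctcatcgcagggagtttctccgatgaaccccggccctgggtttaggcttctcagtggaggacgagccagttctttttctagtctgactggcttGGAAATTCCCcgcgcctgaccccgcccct
The Cxcl10 promoter held 3 kB matches, 2 of them overlapping, and 1 ISRE match. The 2 kB matches of Cxcl1 overlap, and Il6 and Nfkbia had 1 each. A kB match was present in 8.23% of the 27025 genes with a promoter in the table and in 12.6% of the 206 genes with agreeing probes that were higher and had a promoter there. The share was 14.3% among the 140 genes with agreeing probes that were lower. Over all genes with a promoter there the order of higher and lower genes was the other way: a kB match was present in 10.2% of the genes measured on both arrays, 15.2% of those at least 2-fold higher, 23.8% of those at least 8-fold higher and 10.7% of those at least 2-fold lower. Of the 43 genes at least 2-fold higher in the chemokine, interleukin and TNF superfamily lists 29 had a promoter there. A kB match was present in 7 of these (24.1%), so the 4 promoters shown are not typical of the group. A match is a run of letters and not a shown site of binding.

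The interleukin-1 family held large differences around a list median of 1.28. Il1b, the pyrogenic cytokine cleaved by caspase-1, went from 0.23 to 7.96, and its 2 probes gave differences of 7.73 and 8.46. Il1a, its membrane-bound relative, differed by 7.75. The antagonists of the family were also higher with agreeing probes, Il1rn, which blocks the interleukin-1 receptor, by 2.12 and Il18bp, which binds interleukin-18, by 1.45. Il18 itself differed by 2.01 and the receptor chain Il1rap by 1.11. In all, 7 of 12 measured members of the list were at least 2-fold higher and 0 lower. The count includes Tnip3 (4.52), which the list holds although it is neither a ligand nor a receptor of the family. The alarmin Il33 and the receptor chain Il1rl2 appeared above background only at 3 h, at least 15.5-fold and 9.82-fold higher.

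In the group of cytokines related to interleukin-6, interleukin-10 and interleukin-12 and their receptors, 13 of 20 measured genes passed 2-fold upward and 1 downward, around a median of 1.41. Il6, an acute-phase cytokine, was not well above background at 0 h and reached a level of 5.20 at 3 h, at least 645-fold higher. Il10, the anti-inflammatory cytokine, went from -3.10 to 2.91, a difference of 6.01. Both chains of interleukin-12 were higher, Il12a by 3.48 and Il12b, also a chain of interleukin-23, at least 32.1-fold. Il27, a chain of interleukin-27, differed by 2.91 and its partner Ebi3 by 1.41. Il15 and its presenting receptor Il15ra had agreeing probes and differed by 3.93 and 2.47. The wild-type difference of Il15 was 3.65. The brighter probe of Il15ra gave 0.98 in wild-type cells, but its other probe gave 5.82 in LysM-St18flox and 5.59 in wild-type cells. Receptors moved in both directions: Il10ra, which receives the interleukin-10 signal, differed by 1.61, and Il6ra by -1.60, both with agreeing probes.

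TNF superfamily genes were higher in 12 of 25 measured cases and lower in 0. Tnf went from 0.86 at 0 h to 6.67 at 3 h, and its 2 probes gave 5.81 and 5.84 (the wild-type difference was 5.54). Tnfsf15, which acts on T cells through DR3, differed by 6.66 and Tnfsf9, the ligand of 4-1BB, by 6.05. The adaptors Traf1 and Traf2 differed by 4.48 and 1.76, the costimulatory receptor Cd40 by 4.28 and the death receptor Fas by 2.04. The ligands Tnfsf4 (OX40 ligand) and Tnfsf10 (TRAIL) were above background only at 3 h, at least 41.5-fold and 36-fold higher.

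Growth and colony-stimulating factors were divided. Inhba, which encodes the activin A chain, differed by 4.50, and Csf1, the macrophage growth factor, by 2.68 with agreeing probes. Edn1, the precursor of the vasoconstrictor endothelin-1, was at least 272-fold higher and Csf2 at least 13.7-fold. The angiogenic factor Vegfa was lower, and its 4 measured probes differed in size: the brightest went from 3.31 to -0.24, a difference of -3.55, and the others gave -2.48, -1.59 and -0.64. In the wild-type pair the same 4 probes gave -3.25, -2.30, -1.12 and 0.51. Over the list 6 of 19 measured genes were higher and 1 lower.

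The receptors through which these ligands and bacterial products act changed less uniformly. Of 26 measured chemoattractant receptors 7 were higher and 4 lower, around a median of -0.07. The receptors of bacterial formyl peptides were among the higher, Fpr2 from 0.78 to 5.01 with agreeing probes (4.23) and Fpr1 by 3.93. Gpr84, a receptor of medium-chain fatty acids, differed by 5.54. Among the lower, Cxcr4, which holds leukocytes in the bone marrow, differed by -3.13, the sphingosine 1-phosphate receptor S1pr1 by -1.86, the fractalkine receptor Cx3cr1 by -1.85 with agreeing probes, and Ccr2 by -1.56.

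Of 31 measured Toll-like receptors, co-receptors and adaptors 12 were higher and 2 lower. The intracellular peptidoglycan sensors Nod2 and Nod1 differed by 4.84 and 2.97, and their kinase Ripk2 by 3.13. Tlr2, the receptor of bacterial lipoproteins, differed by 3.02, and its partner Tlr1 by 1.85 with agreeing probes. Cd14, the LPS carrier, went from 5.34 to 7.15 (1.82, agreeing probes). The adaptor Myd88 differed by 2.44 and the inhibitory kinase Irak3 by 1.28. Tab1, which activates the kinase TAK1, was lower at -1.74, while its relative Tab2 was higher by 1.45 with agreeing probes.

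The NF-kB list had a median of 2.04, with 11 of 17 measured genes higher and 1 lower. Nfkbiz, a nuclear IkB protein needed for secondary genes such as Il6, went from -0.69 to 5.15 (5.84, agreeing probes). The inhibitors that hold NF-kB in the cytoplasm were higher together, Nfkbie by 3.56, Nfkbia by 3.22 and Nfkbib by 2.56. Of the subunits, Nfkb2 differed by 3.15, Relb by 2.04 and Rela by 1.50 with agreeing probes, and Nfkb1 by 2.66 and Rel by 2.21 with 1 measured probe each. The lower member was Map3k14, the NIK kinase of the non-canonical pathway, whose probes disagreed: the brighter gave -1.99 and the other -0.27.

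Other feedback inhibitors followed. Of 24 measured members of their list 14 were higher and 0 lower, beside 8.13% and 8.99% over all measured genes. The count includes Clec4e, a C-type lectin receptor (4.21), and Tnfaip2 (3.23), which are not established feedback inhibitors. The inhibitors of cytokine receptors Cish, Socs1 and Socs3 differed by 6.95, 6.37 and 5.85, each from 1 measured probe, and Socs2 by 2.04 with agreeing probes. Usp18, which restrains the interferon receptor, differed by 5.44. Tnfaip3 (A20), which removes ubiquitin chains from NF-kB signalling proteins, went from 2.99 to 6.93, a difference of 3.94. Spred1 and Rasa2, inhibitors of RAS signalling, had agreeing probes and differed by 2.57 and 1.58. Among MAP kinase phosphatases 4 of 12 were higher, led by Dusp2 at 3.26, and Dusp6, which acts on ERK, was lower at -1.26.

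The list of regulators of messenger RNA decay and translation moved in both directions, with 7 of 20 higher and 3 lower. The lower count includes Ddit3 (-1.59), a stress transcription factor, and the higher count Eif2ak2 (3.33), a kinase that acts on translation. The RNases Zc3h12a (Regnase-1) and Zc3h12c differed by 2.60 and 3.25, the latter with agreeing probes. Zfp36 (tristetraprolin), which marks cytokine transcripts for decay, differed by 2.03, whereas its relative Zfp36l2 was lower at -2.31.

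Among early transcription factors 14 of 32 measured genes were higher and 4 lower. Batf2 and Batf, partners of IRF factors, differed by 4.39 and 2.54, and the small Maf protein Maff by 2.95. Junb and Nfil3 were higher with agreeing probes, by 1.79 and 1.77. The classical immediate-early genes Fos and Jun were lower at this time, Fos from 3.20 to 1.41 and Jun from 5.50 to 3.15, differences of -1.80 and -2.35.

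Interferon-stimulated genes were higher in most measured cases. Ifnb1 was not well above background at 0 h and stood at 2.52 at 3 h, at least 101-fold higher. Of the 5 other interferon genes on the array, the 2 that were measured differed by less than 2-fold. Over the lists of IFIT and OAS genes, of GTPases and of other antiviral genes, 57 of 67 measured members were at least 2-fold higher and 0 were lower, beside 8.13% and 8.99% over all measured genes.

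The IFIT proteins bind viral RNA, and Ifit1, Ifit2 and Ifit3 differed by 9.36, 8.71 and 7.61. Ifit1 went from a level of -2.85 to 6.51. Ifit3 and its near copy Ifit3b share much of their sequence, so their probes may read each other's transcripts. The oligoadenylate synthetases activate RNase L, and here Oasl1 went from 2.53 to 8.02 with agreeing probes (5.49), while Oas2, Oas3 and Oas1a differed by 3.29, 3.01 and 1.86. Rsad2 (viperin), which makes a chain-terminating nucleotide, went from -0.21 to 7.51, and its 2 probes gave 7.72 and 8.17. Cmpk2, its genomic neighbour and a nucleotide kinase, differed by 7.84. Isg15, a ubiquitin-like modifier, and Herc6, its ligase, differed by 5.86 and 5.22. Further antiviral genes with agreeing probes were the exonuclease Isg20 (4.25), Parp14 (3.91), the helicase Helz2 (3.87), Slfn8 (4.23) and Slfn5 (3.19).

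Guanylate-binding proteins and immunity-related GTPases, which attack vacuoles holding pathogens, had the highest median of any list, 4.32, with 13 of 15 measured genes higher. Gbp5 went from -2.21 to 5.86, a difference of 8.07. Irgm1 had agreeing probes and differed by 4.32. Tgtp2, Iigp1, Ifi47 and Igtp lay between 6.25 and 4.52. Members of this family are close in sequence, and a value can contain signal of a relative.

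Promoters of 4 members of these lists are shown for the same 2 motifs, with ISRE and kB matches in capitals and the strand and build as above.
Ifit1 (chr19:34640639-34640888, + strand): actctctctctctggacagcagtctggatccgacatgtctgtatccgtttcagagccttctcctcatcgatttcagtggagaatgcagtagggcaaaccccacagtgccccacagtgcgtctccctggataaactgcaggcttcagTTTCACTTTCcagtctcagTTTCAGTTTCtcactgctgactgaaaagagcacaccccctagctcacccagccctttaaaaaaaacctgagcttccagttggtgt
Isg15 (chr4:156200819-156201068, - strand): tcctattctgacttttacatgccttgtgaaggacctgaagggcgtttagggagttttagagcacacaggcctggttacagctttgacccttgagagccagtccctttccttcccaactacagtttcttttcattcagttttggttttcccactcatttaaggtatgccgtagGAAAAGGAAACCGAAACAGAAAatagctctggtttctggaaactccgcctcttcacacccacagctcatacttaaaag
Rsad2 (chr12:26456453-26456702, - strand): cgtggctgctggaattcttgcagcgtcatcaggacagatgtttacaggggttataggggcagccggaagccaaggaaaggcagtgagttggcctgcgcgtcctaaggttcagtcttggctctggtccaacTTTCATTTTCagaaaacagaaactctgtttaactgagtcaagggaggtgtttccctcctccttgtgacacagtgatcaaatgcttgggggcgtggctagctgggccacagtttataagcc
Gbp5 (chr3:142496684-142496933, + strand): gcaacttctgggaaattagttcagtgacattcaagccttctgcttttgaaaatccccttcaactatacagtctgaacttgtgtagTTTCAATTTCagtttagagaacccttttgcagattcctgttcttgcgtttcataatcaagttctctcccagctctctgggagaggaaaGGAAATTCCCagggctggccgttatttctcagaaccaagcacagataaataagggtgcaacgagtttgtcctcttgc
The matches in Ifit1, Isg15 and Rsad2 are all ISRE matches, 2 in Ifit1, 3 that overlap in Isg15 and 1 in Rsad2. Gbp5 held 1 match of each kind. An ISRE match was present in 3.46% of the 27025 genes with a promoter in the table and in 3.34% of those measured on both arrays. Of the 57 genes at least 2-fold higher in the 3 interferon-stimulated lists 46 had a promoter there, and 22 of these held a match, which is 47.8%. The share was 7.28% among the 206 higher genes with agreeing probes and 2.14% among the 140 lower ones. The lists are made of genes known for their response to interferon, so the high share describes the choice of genes as much as these arrays.

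Cytosolic nucleic acid sensors were higher in 12 of 17 measured cases and lower in 1. The RNA sensors Ddx58 (RIG-I) and Ifih1 (MDA5) differed by 3.68, with agreeing probes, and 4.93. The DNA sensor Cgas and Zbp1, which binds Z-form nucleic acid, differed by 3.29 and 2.95 with agreeing probes, and the nuclease Trex1, which removes cytosolic DNA, by 4.04. Among interferon regulatory factors, STAT proteins and Janus kinases 8 of 23 were higher and 0 lower. Irf1 went from 3.01 to 6.82 (3.81) and Jak2 from 0.68 to 4.31 (3.63), both with agreeing probes. Irf7 and Irf9, which serve interferon signalling, had agreeing probes and differed by 2.89 and 1.79. Stat2 differed by 3.02 from 1 measured probe.

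Some of the called genes lie next to each other. With genes ordered along the RefSeq annotation, 28 runs of at least 3 successive measured genes were all at least 2-fold higher (105 genes), and 24 runs were all at least 2-fold lower (76 genes). The longest, on chromosome 11, held 8 Schlafen genes with differences from 2.71 for the pseudogene Slfn10-ps to 4.67 for Slfn1. The HIN-200 cluster of DNA-binding proteins on chromosome 1 held 6 genes from Aim2 (1.12) to Ifi209 (5.17), and Ifi205 differed by 5.08 with agreeing probes. On chromosome 5 the OAS cluster held 6 genes between 1.37 for Oas1c and 3.29 for Oas2. Further runs held Trim30 and Trim34 genes, Phf11 genes (from 2.90 to 3.56), the antigen-processing genes Psmb9, Tap1, Psmb8 and Tap2, and Parp14, Dtx3l and Parp9. Most of these are families of duplicated genes, for which probes may share signal; Psmb9, Tap1, Psmb8 and Tap2 are an exception, since the Psmb and Tap genes encode unlike proteins. The 4 longest runs of lower genes had 4 genes each, and 2 of them held zinc finger genes.

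**Figure D3:**
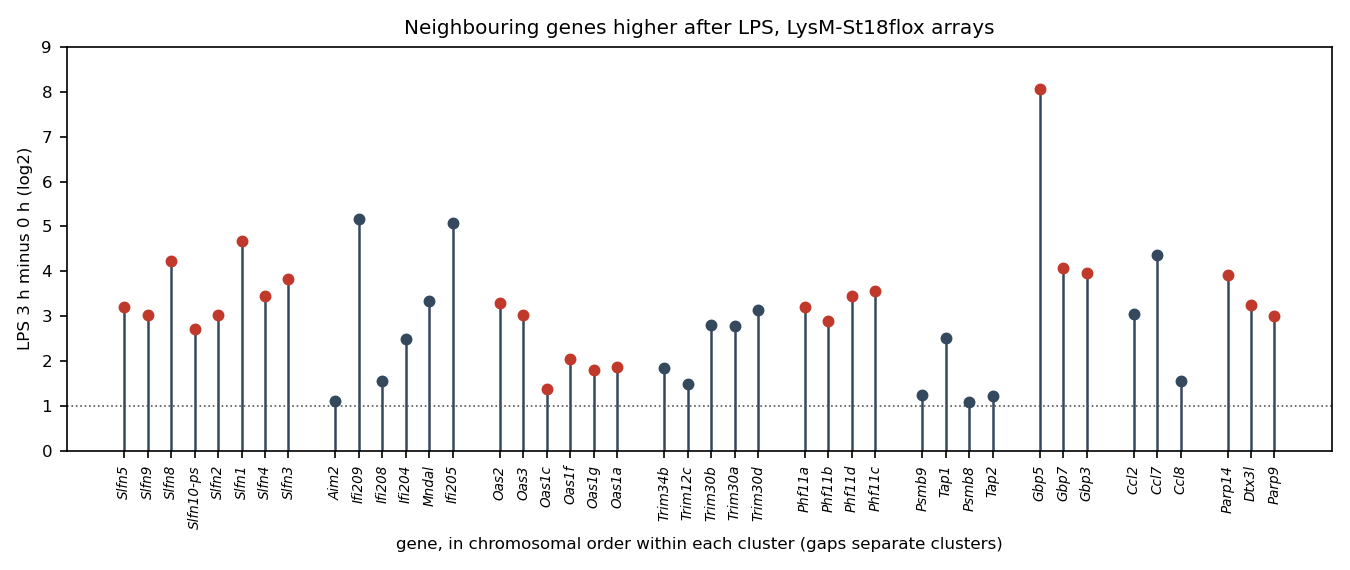
Difference after LPS (log2, vertical) in LysM-St18flox cells for 9 runs of neighbouring measured genes that were all at least 2-fold higher, in chromosomal order; colours alternate between runs and the dotted line marks 2-fold. Gbp5 is highest at 8.07 and Psmb8 lowest at 1.08.

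Inflammasome and cell-death genes were higher in part. Mefv, which encodes the inflammasome sensor pyrin, went from 1.24 to 5.77 with agreeing probes (4.53). Casp4, the mouse caspase-11 that binds cytosolic LPS, differed by 3.37, Nlrp3 by 2.45, Casp1 by 1.63, and the pore-forming Gsdmd by 1.16 with agreeing probes. Mlkl, the executioner of necroptosis, differed by 2.50. Nlrp1b was lower, by -1.68, with agreeing probes. In the list of BCL2-family and p53-response genes 9 of 36 were higher and 6 lower. Survival genes were among the higher: Cflar (cFLIP), which blocks caspase-8, went from 2.21 to 5.78, and its 4 probes gave 3.57 to 3.93, and Bcl2a1d differed by 2.06. The lower members included the p53-linked genes Sesn1 (-3.35), Phlda3 (-2.37) and Trp53inp1 (-1.88, agreeing probes), whereas Cdkn1a (p21), a p53 target that halts the cell cycle, was higher by 2.23. Bmf, a pro-apoptotic BH3-only gene, was lower at -4.08 by its brighter probe, but the other probe gave 0.31.

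Some genes of arginine, nitric oxide, itaconate and tryptophan metabolism were higher, 8 of 18 measured with 0 lower and a median of 0.74. Nos2, the inducible nitric oxide synthase, went from -2.73 to 3.19, a difference of 5.92. Acod1, which makes itaconate, differed by 6.46. The arginine transporter Slc7a2 differed by 4.64, Gch1, which starts synthesis of the NOS cofactor tetrahydrobiopterin, by 2.43, and the cystine transporter Slc7a11 by 3.16 (5.03 in wild-type cells). Odc1, the first enzyme of polyamine synthesis, had agreeing probes and differed by 1.96. Ptgs2 (COX-2), which commits arachidonic acid to prostaglandins, had a level of -2.39 at 0 h and a difference of 7.39, and 3 of the 19 other measured eicosanoid genes passed 2-fold, the prostaglandin E receptors Ptger2 (1.51) and Ptger4 (1.01) and the phospholipase Pla2g4a (1.49).

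Single members stood far from the medians of several metabolic lists. Ch25h, which makes the antiviral sterol 25-hydroxycholesterol, differed by 7.90, while the 27 measured genes of cholesterol synthesis and LXR action had a median of -0.13. Sod2, the mitochondrial superoxide dismutase, differed by 3.02, while the median of 37 respiratory chain and TCA cycle genes was 0.09. Slc2a6, a lysosomal member of the glucose transporter family, had agreeing probes and differed by 2.74, against -0.11 for its list, in which Hif1a was 2.82-fold higher. Metal handling genes were higher in part: the siderophore-binding Lcn2 differed by 4.71, the zinc importer Slc39a14 by 2.98 and the metallothioneins Mt2 and Mt1 by 3.02 and 1.01. Slc30a1, the zinc exporter of the plasma membrane, was lower at -2.92.

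Surface molecules for contact with lymphocytes were higher in 13 of 24 measured cases and lower in 2, of which Cd80 was counted as lower by its brightest probe although its other 2 probes were higher. Cd69, an early activation antigen, differed by 6.22, Cd274 (PD-L1) by 3.43, Cd83 by 2.68 and Icosl by 2.29. Clec2d, a ligand of the NK receptor NKR-P1, had agreeing probes and differed by 2.15 (0.65 in wild-type cells). Marcksl1, an actin-linked substrate of protein kinase C, went from 1.65 to 6.14 with agreeing probes (4.48). The inhibitory ligand Vsir (VISTA) was lower at -1.04, also with agreeing probes. In the MHC class I pathway 8 of 20 genes were higher and 0 lower, led by the peptide transporter chain Tap1 at 2.51. The MHC class II list was within 2-fold in 14 of 15 cases, the exception being its transactivator Ciita, which went from 3.14 to 1.74 (-1.41, agreeing probes).

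Adhesion, matrix and clotting genes held large single differences. Vcan, the matrix proteoglycan versican, went from -3.16 to 2.23, and its 3 probes gave 3.13 to 5.39, where the same probes gave 3.49, 2.75 and 4.43 in wild-type cells. Icam1, the ligand of the LFA-1 integrin, differed by 5.07, and Vcam1 was at least 140-fold higher. The matrix proteases Mmp13 and Mmp14 differed by 3.73 and 3.17, and the inhibitor Timp1 by 5.44. In the clotting and complement list 12 of 32 were higher. Tissue factor (F3) differed by 2.64, and complement factors Cfb and C3 by 3.10 and 1.56 with agreeing probes. The anticoagulant receptor Thbd (thrombomodulin) was the list's lower gene, at -3.56.

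Genes of the cytoskeleton were split, 11 of 34 higher and 6 lower. The RhoA antagonists Rnd1 and Rnd3 differed by 7.87 and 4.48, the latter with agreeing probes, and Fnbp1l, which bends membranes for actin assembly, by 3.90 with agreeing probes. Fhdc1, a formin, was lower at -3.93, Arhgap25 by -2.61, and Fgd4, an exchange factor of Cdc42, by -2.21 with agreeing probes. Other higher genes with agreeing probes were the receptor tyrosine kinase Met, from 0.48 to 4.07 (3.59), and the cyclin Ccnd2, from 0.82 to 5.35 (4.53). Ubiquitin ligases gave 10 of 31 higher, among them Peli1, which acts in TLR signalling, at 3.14 with agreeing probes, and 5 lower. Chromatin genes gave 4 of 33 higher, among them the histone demethylase Kdm6b (2.11) and Arid5a (3.35, agreeing probes), a protein that stabilises Il6 RNA, and 5 lower, among them the DNA methyltransferases Dnmt1 (-2.01) and Dnmt3a (-1.34, agreeing probes).

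**Figure D4:**
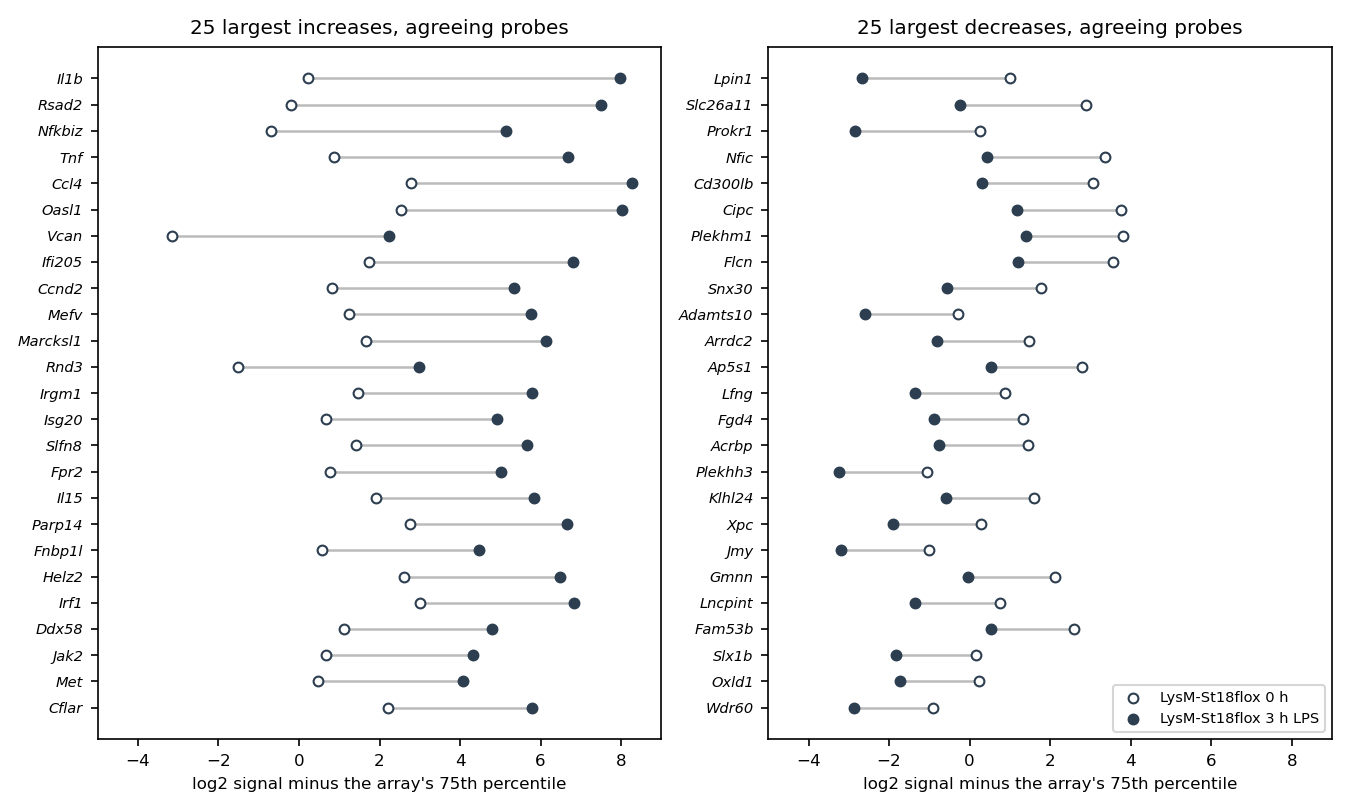
Levels (log2 signal minus the array's 75th percentile, horizontal) at 0 h (open) and 3 h after LPS (filled) on the LysM-St18flox arrays for the 25 largest increases and 25 largest decreases among genes with agreeing probes. The increases run from 7.73 for Il1b to 3.57 for Cflar and the decreases from -3.69 for Lpin1 to -1.96 for Wdr60.

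Among lower genes with agreeing probes the differences were smaller. Lpin1, a phosphatidic acid phosphatase and transcriptional coregulator of lipid metabolism, had the lowest value and went from 1.01 to -2.68, and its 2 probes gave -4.15 and -3.69. The sulfate transporter Slc26a11 went from 2.89 to -0.24 (-3.13) and the prokineticin receptor Prokr1 from 0.26 to -2.85 (-3.11). Nfic, a nuclear factor I protein, went from 3.37 to 0.44, with -2.93 to -2.60 over its 3 probes. Cd300lb, an activating receptor of myeloid cells, differed by -2.75. Further genes of the 25 were Flcn (folliculin), which links nutrients to lysosomal signalling (-2.36), Plekhm1, a tether of late endosomes (-2.43), Snx30, a sorting nexin (-2.33), and Ap5s1, a subunit of the AP-5 coat (-2.27). Xpc, which recognises damage in nucleotide excision repair, differed by -2.18, Gmnn (geminin), which limits the licensing of replication, by -2.17, and the nuclease Slx1b by -1.99. The others named here are Lfng, which modifies Notch receptors (-2.24), Klhl24 (-2.19) and the non-coding RNA Lncpint (-2.11).

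A list of myeloid lineage factors and of transcription factors put there as repressed, whose make-up thus partly sets its direction, was lower in 14 of 51 measured cases and higher in 6, around a median of -0.33. Cebpa, a founding factor of the myeloid lineage, went from 3.90 to -0.20, a difference of -4.10, while its relative Cebpd was higher by 2.33. Lyl1, a bHLH factor, was lower at -3.47. The nuclear receptors Pparg and Ppard were 3.99-fold and 3.51-fold lower, and their partner Rxra differed by -1.61 with agreeing probes. Mef2c, with agreeing probes, was lower at -1.22, and the Krüppel-like factors Klf4, Klf9 and Klf10 by -1.51, -1.44 and -1.29. Higher members included Tfec (3.05) and Gfi1 (2.25).

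Circadian clock genes had the lowest median of any list, -1.20, with 7 of 12 measured genes at least 2-fold lower and 0 higher, beside 8.99% lower over all measured genes. Arntl (BMAL1), the activator of the clock, went from 0.61 to -0.91 (-1.52). The PAR bZIP output genes Dbp and Tef differed by -1.60 and -1.67 and the repressor Bhlhe41 by -1.38, and the probes of all of these 4 genes agreed. Cipc, a repressor of CLOCK outside the list, differed by -2.58, also with agreeing probes. Of the period genes, Per1 went from 2.13 to -0.60 (-2.73) and Per2 differed by -1.67. Nr1d1 (REV-ERB alpha) fell below background, at least 6.83-fold lower. Over the alternatives tried the median of this list ran from -1.45 to -0.97.

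Clock activators bind the E-box CACGTG, a palindrome, and the 2 promoters shown hold it in capitals, in the same window and build as above.
Per1 (chr11:69098699-69098948, + strand, the upstream of 2 starts in the table): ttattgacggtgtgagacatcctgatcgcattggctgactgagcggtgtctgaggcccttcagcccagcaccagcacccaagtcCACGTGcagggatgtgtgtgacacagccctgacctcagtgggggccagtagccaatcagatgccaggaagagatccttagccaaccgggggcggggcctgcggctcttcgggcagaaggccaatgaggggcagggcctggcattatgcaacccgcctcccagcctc
Bhlhe41 (chr6:145865421-145865670, - strand): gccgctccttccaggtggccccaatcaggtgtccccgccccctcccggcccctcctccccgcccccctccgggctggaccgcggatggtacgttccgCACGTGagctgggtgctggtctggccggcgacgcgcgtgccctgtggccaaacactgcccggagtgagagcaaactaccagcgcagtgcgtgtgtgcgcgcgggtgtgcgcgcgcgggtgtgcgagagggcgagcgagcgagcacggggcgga
Each held 1 match, while the window of the other start of Per1 held none. An E-box was present in 6.86% of the 27025 genes with a promoter in the table, in 9.65% of those measured on both arrays, in 12.6% of all genes at least 2-fold lower and in 10.1% of all at least 2-fold higher. With agreeing probes the shares were 17.9% of 140 lower genes and 12.1% of 206 higher ones. The window of Arntl, Dbp, Nr1d1 and Cebpa was also searched and held none of these letters.

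A list of genes put together as linked to FoxO activity and to atrophy had the next lowest median, -0.69. It was chosen with earlier results of these data known, so its make-up can partly set its direction. The ligase gene Fbxo32 (atrogin-1) fell below background, at least 47.5-fold lower, as did Usp2, at least 18.9-fold. Fbxo31 differed by -3.39 and Zfp395 by -4.26. Foxo3 itself was lower at -1.60, and within 2-fold at -0.96 under normexp, another background correction. Of 15 measured members 3 were lower and 1 was higher, so most stood within 2-fold, beside 8.99% lower and 8.13% higher over all measured genes.

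G protein-coupled receptors for nucleotides and lipids were lower in 7 of 28 cases and higher in 9. The lysophosphatidic acid receptor Lpar6 went from 4.24 to 0.30 (-3.95), and Gpr146 and the ADP receptor P2ry1 differed by -3.60 and -3.20. The adenosine receptors Adora2a and Adora2b, which raise cyclic AMP, were higher by 3.97 and 3.32, and so was the niacin receptor Hcar2 by 3.37.

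The list of glycolysis and oxygen-sensing genes held the lowest measured value of all. Ankrd37, a target of HIF, went from 3.05 to -1.47 (-4.52), and the prolyl hydroxylase Egln3, which marks HIF for decay, differed by -2.95. Kdm3a, another HIF target, was lower at -1.55. Of the 36 measured genes of this list 4 were lower, 3 were higher and 29 stood within 2-fold, around a median of -0.11. These shares are near those over all measured genes (8.99% lower and 8.13% higher), and the higher members included Slc2a6 and Hif1a, given above. In the TGF-beta list the inhibitory Smad6 and Smad7 were lower at -4.03 and -1.60, and 23 of 28 genes stood within 2-fold. Fut7, which completes selectin ligands, was lower at -3.71.

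Cell cycle and replication genes were lower in 10 of 43 cases and higher in 4, with a median of -0.34. With agreeing probes E2f2 was lower at -1.44 and Cdc20, an activator of the anaphase-promoting complex, by -1.34. Cdt1, which licenses replication, was lower at -2.13. Against these stood Ccnd2, named above, and Mki67, higher by 2.29 from 1 measured probe.

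Several basic functions moved little. Lysosome and autophagy genes were within 2-fold in 32 of 34 cases, with a median of 0.00. The unfolded protein response and heat shock genes were within 2-fold in 29 of 32 cases. The exceptions were Hspa1b, higher by 1.51 (3.65 in wild-type cells) and close in sequence to Hspa1a, Dnaja1, 2.14-fold higher, and the kinase Eif2ak3, lower at -1.95. The gap in Hspa1b lay mostly at 0 h, with levels of 0.81 in LysM-St18flox and -1.55 in wild-type cells. At 3 h its levels were 2.33 and 2.10. Ribosome biogenesis genes were within 2-fold in 25 of 28 cases, and genes of alternative activation and resident macrophages in 20 of 21. Over all measured genes 10754 of 12976 were within 2-fold. Fc, scavenger and efferocytosis receptors were near that share, with 25 of 30 within 2-fold, 5 higher and 0 lower. Among the scavenger receptors Msr1 was higher by 1.84 with agreeing probes and Olr1 by 3.02.

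Some genes cannot be given a single value because their probes disagreed. In 7 genes measured probes passed 2-fold in opposite directions. The brightest probe of the costimulatory ligand Cd80 gave -1.32, and its 2 other probes gave 1.84 and 2.15. Its wild-type values were -1.49, 1.46 and 1.45, so each probe had the same sign in both genotypes. For the growth factor Mdk the brightest probe gave 2.54 and the others -1.73 and -1.31, and the wild-type values again had the same signs (1.12, -2.50 and -2.27). The brighter probe of Plekhg3 gave 1.27 and the other -1.85. Stat5a, a STAT protein of cytokine receptors, had a probe at 3.38 and another at 0.63. Which transcripts each probe reads was not tested.

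A few bounds rest on a single probe on a single array with no counterpart in wild-type cells. The probe for periostin (Postn), a matrix protein, was at -6.26 and not above background at 0 h and at 9.51 at 3 h, at least 12803-fold higher, while its wild-type levels were -6.37 and -5.67. Ces5a, Chst8 and Spock2 went the other way, above background at 0 h only, at least 26.2-fold, 20.4-fold and 18.5-fold lower, with wild-type differences of -1.53, -0.27 and -0.29 between probe values.

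The wild-type pair gives the nearest comparison for the size of these differences, although it too has 1 array per time and the exudates differed in markers of other cells before LPS. At 0 h the summed level of the erythroid marker list, relative to the 75th percentile, was 82.7 in LysM-St18flox and 11.3 in wild-type cells, and that of the B cell list 26.7 and 6.65. The sums were 8.50 and 4.08 for eosinophils, 9.61 and 5.17 for mast cells, 11.5 and 7.47 for T and NK cells and, in the other direction, 5.27 and 11.5 for mesothelial cells and fibroblasts. Macrophages (843 and 946), neutrophils (166 and 165) and dendritic cells (108 and 107) stood closer. These linear sums are weighted to their brightest members. In LysM-St18flox cells at 0 h these were Csf3r (7.02) for neutrophils and Siglech (6.69) for dendritic cells. S100a9 (3.39) and Flt3 (-1.06) of the same lists stood far lower, so these sums say little about numbers of those cells. The part of these cells in the gaps between the genotypes was not tested. Wild-type cells passed 2-fold upward in 1101 (8.92%) and downward in 1423 (11.5%) of the 12339 genes measured on all 4 arrays. For the following counts the wild-type value of a gene is that of its brightest LysM-St18flox probe alone. All 254 genes with agreeing probes that were higher in LysM-St18flox cells were measured in wild-type cells, where 210 were also past 2-fold upward and 0 had the opposite sign. Of the 170 lower ones that were measured there 125 were past 2-fold downward and 0 had the opposite sign. Some second probes did have it, without a check on wild-type background. That of Osm gave 1.30 in LysM-St18flox and -0.89 in wild-type cells, and that of Hes6 -1.10 and 3.01. The medians were 1.76 against 1.73 for the higher genes and -1.43 against -1.43 for the lower. These genes were chosen on the LysM-St18flox arrays, and the wild-type arrays did not enter the choice.

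**Figure D5:**
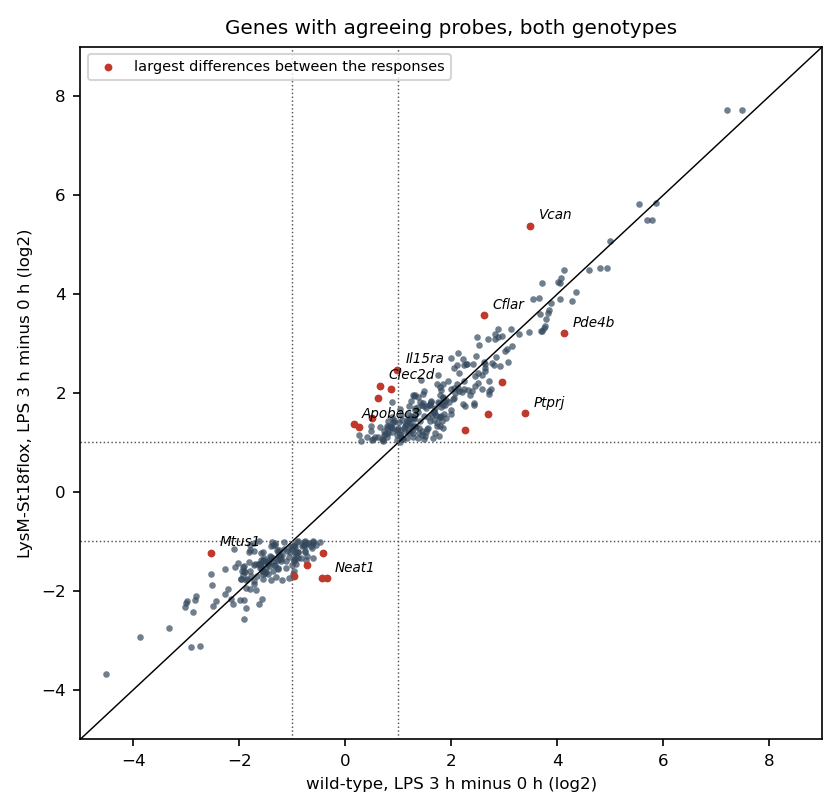
Difference after LPS (log2) in LysM-St18flox cells (vertical) against wild-type cells (horizontal) for the 424 genes with agreeing probes in LysM-St18flox cells that were measured on all 4 arrays; the line marks equality, dotted lines mark 2-fold, and red points are the 10 largest differences between the responses in each direction. Each gene is shown by its brightest LysM-St18flox probe, and no point has opposite signs on its 2 axes.

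Some of the largest gaps between the responses among these genes are given here for each measured probe, since some were present in the brightest probe only. The 2 probes of Clec2d gave 2.15 and 2.07 in LysM-St18flox cells against 0.65 and 0.82 in wild-type cells, so that both were larger in LysM-St18flox cells. The 2 probes of the actin regulator Vasp gave 1.58 and 1.55 against 2.69 and 2.69, both smaller in LysM-St18flox cells. Those of the cyclic AMP phosphodiesterase Pde4b gave 3.21 and 3.31 against 4.13 and 3.76, and those of Ppfibp1 gave 1.25 and 1.16 against 2.25 and 3.86. For other genes the probes did not share the gap. The brightest probe of the cytidine deaminase Apobec3 gave 1.37 against 0.16, but the others gave 2.06 against 2.01 and 1.74 against 2.22. The receptor phosphatase Ptprj had a probe at 1.59 against 3.39 and another at 1.87 against 1.94. Il15ra and Vcan, given above, likewise had a gap by the brightest probe (2.47 against 0.98, and 5.39 against 3.49) that was smaller or turned in the others. Among lower genes the non-coding RNA Neat1 went from 1.83 to 0.09 in LysM-St18flox cells (-1.74) and differed by -0.35 in wild-type cells. Its second probe gave -1.51 and -0.16. The 2 probes of Fam53a gave -1.24 and -1.36 against -0.42 and -0.08. For Mtus1 the decrease was smaller in LysM-St18flox cells by both probes, -1.2 and -1.2 against -2.5 and -2.6. With 1 array per group these gaps were not tested, and they are the extremes of 424 genes.

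The cell type label was checked against marker genes. All 13 macrophage markers were well above background on both LysM-St18flox arrays, among them Cd68 (7.78 at 0 h and 7.86 at 3 h), Csf1r (7.37 and 7.20), Adgre1, which encodes F4/80 (6.01 and 6.35), and Lyz2 (6.03 and 6.07). Lyz2, the gene of the LysM locus, differed by 0.04 here and by 1.47 in wild-type cells, a gap that was not tested. Of the 13, Msr1 and Cd14 were at least 2-fold higher after LPS and 1 was at least 2-fold lower. Markers of other cells were also present. At 0 h 12 of 13 neutrophil markers, 12 of 12 B cell markers, 11 of 14 T and NK cell markers, 7 of 8 mast cell markers, 5 of 7 eosinophil markers, 6 of 8 dendritic cell markers, 8 of 11 mesothelial and fibroblast markers and 6 of 7 erythroid markers were above background, among them Cd3e, Cpa3, S100a8 and Hba-a1. The defining markers Ngp (neutrophils), Cd8a and Ncr1 (T and NK cells), Epx and Prg2 (eosinophils), Xcr1 (dendritic cells) and Lum (fibroblasts) were not above background on either array.

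Between 0 h and 3 h the summed linear level of a marker list, relative to the 75th percentile, went from 843 to 976 for macrophages, from 166 to 172 for neutrophils, from 26.7 to 21.2 for B cells, from 11.5 to 13.5 for T and NK cells, from 8.50 to 7.59 for eosinophils, from 108 to 136 for dendritic cells, from 5.27 to 4.14 for mesothelial cells and fibroblasts and from 82.7 to 96.6 for erythroid cells. For mast cells it went from 9.61 to 17.7, of which Hdc, the histidine decarboxylase that makes histamine and that macrophages can also express, went from 1.35 to 3.44 on the log2 scale with agreeing probes (2.09), while the proteases Cpa3 and Cma1 differed by -0.21 and -0.03. The dendritic cell sum rested mostly on Siglech, which went from 6.69 to 7.01, and the neutrophil sum on Csf3r, which went from 7.02 to 7.08. Of the measured markers of other cells, those past 2-fold were Hdc, the kinase gene Lck of T cells (1.32) and Mgp of fibroblasts (-1.19). Zbtb46, a marker of dendritic cells, was above background only at 3 h, at least 17-fold higher. The part of these cells in the differences given above was not tested.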

How the data were processed

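Total RNA of the cells was labelled with Cy3 and hybridised to Agilent 1-colour arrays, 1 array per group, on 1 slide. Per the file headers, the authors' deposited intensity values are Feature Extraction 11.0.1.1 processed signals (background-subtracted, spatially detrended, not normalized between arrays), with flags for signal above background, saturation and outliers. The deposited value table holds log2 values of 25482 probes. Its 4 columns share all quartiles, as after quantile normalization, which no source used here states, and it served as an alternative. Accessions of 32989 of 56605 probes matched 1 symbol each in the RefSeq table of GRCm38.p6, giving 22905 genes. The headers name another build, so that table gave names and the order of genes only; promoters are from RefSeq GRCm38.p6.

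Control spots and outlier-flagged spots were left out, spots of a probe were averaged as log2, and each array's 75th percentile over non-control spots was subtracted (signals of 1067 at 0 h and 882 at 3 h). A bound subtracts from the bright array's value either the dim probe's own value or the dim array's lowest value well above background, whichever is higher. The steps were checked on simulated data with known changes. Python 3.11.15, pandas 2.3.3 and R 4.3.3 with limma 3.58.1 (normexp on median spot and background signals, offset 50, the files giving no mean spot signal) were used. Since each group has 1 array, no test was run.

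Genes were named by a rule. It took the 25 largest differences in each direction with agreeing probes, the 15 largest from single probes, up to 8 members of each of 50 functional lists, and up to 12 bounds in each direction. It also took genes with opposed probes, the 10 largest differences between the genotypes' responses in each direction, genes of runs of at least 3 neighbours, and a few fixed cytokine and control genes. List members outside the rule were chosen after their values were seen: Ccl17, Il33, Il1rl2, Il27, Ebi3, Csf2, Tnfsf10, Myd88, Tab1, Nfkb1, Rel, Tnfaip3, Usp18, Fos, Cebpd, Gfi1, Klf4, Klf9, Klf10, Foxo3, Pparg, Ppard, Zbtb46, Isg15, Herc6, Trex1, Bcl2a1d, Nr1d1, Cd274, Icosl and Cd83. The members and lists were chosen with earlier results of these data known. Alternatives were another background correction, centring on the median, quantile normalization, the mean of all probes, stricter and no filters on dim probes, outlier spots kept and the deposited table. A percentile over probes in place of spots was added after seeing the data. Some genes are not reported here.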

Additional observations from a re-analysis of the deposited data

Results flagged for a closer look

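Differences of opposite sign in the 2 genotypes were found for 3 genes named in the report, all well under 2-fold in both. The macrophage marker Cd68 differed by 0.0803 in LysM-St18flox cells and by -0.33 in wild-type cells, the mast cell protease Cma1 by -0.025 and 0.19, and the globin gene Hba-a1 by 0.23 and -0.23. With 1 array per group these differences between the genotypes were not tested.

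Probes with no gene symbol, which the comparisons above do not use, also differed after LPS. Of 23616 such probes 8972 were well above background on both LysM-St18flox arrays. At least 2-fold higher were 668 of them (7.45%) and at least 2-fold lower 909 (10.1%), close to the shares among named genes. Their differences ran from 8.45 to -4.40. Of the higher ones 613 were measured in wild-type cells, where 446 were also at least 2-fold higher.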

How the results depend on the processing

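Genes higher after LPS numbered 881 to 1377 under the alternatives other than that with no background filter, which gave 1846, against 1055 as reported. Genes lower numbered 760 with normexp background correction and 744 after centring on the median, against 1167, and 2239 with no background filter. With agreeing probes the lower genes numbered 95 under normexp, 102 after centring on the median, 94 under the stricter filter on dim probes and 263 with no background filter, against 171, and the higher ones 194 to 351, against 254. Under the stricter filter 881 of the 1055 higher genes and 794 of the 1167 lower genes were still measured and called. Genes with agreeing probes that were past 2-fold in the same direction in wild-type cells made up 75.9% to 82.4%, against 79.0% as reported. Of 261 genes named with a difference past 2-fold 244 kept it under every alternative that gave a value; 3 changed sign when all measured probes were averaged, Cd80 (0.89), Mdk (-0.17) and Plekhg3 (-0.29), whose probes disagree. The 14 others dropped under 2-fold in the same direction under at least 1 alternative: Aim2 (0.97), Bhlhe41 (-0.94) and Foxo3 (-0.96) under normexp, Cxcl14 (-0.97) and Mef2c (-0.99) after centring on the median, Dnaja1 (0.79), Gsdmd (0.93), Mt1 (0.72), Psmb8 (0.80), Psmb9 (0.97) and Tap2 (0.91) under quantile normalization and also in the deposited table, and Mgp, Ptger4 and Vsir under 3 or more alternatives. Of 12 list medians past 2-fold those of the clock genes (-0.97 under normexp) and of the costimulatory molecules (0.93 under quantile normalization) dropped under it, and no list median past 2-fold changed sign. Only probes well above background have a value, so dim transcripts can be given only as bounds. No paired analysis was possible because each group has 1 array.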
